A study of Homo sapiens with 9 samples.

Results

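CPA4, CPA5, CEP41, MEST, COPG2, KLF14, MKLN1 and PODXL are 8 protein-coding neighbours on the long arm of chromosome 7, in band 7q32, out of 57733 genes in the deposited tables. They were taken by symbol. CPA4 and PODXL were selected on their measured nascent RNA, which was far higher in KO C28 than in WT in these data, and the other genes because they lie between that pair. The level of CPA4 and PODXL in KO C28 against WT is therefore given as a description, with no test. Tests are given for KO C22 against WT and for BruUV-seq against Bru-seq, and the first of these shares its WT libraries with the contrast that chose the genes.

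The cells were PANC-1, an established line from a human pancreatic ductal carcinoma. KO C22 and KO C28 are 2 clones edited with CRISPR/Cas9 against KDM6A (UTX), an X-linked histone demethylase that removes the repressive methyl mark of Polycomb complexes. WT is the PANC-1 control that received no guide RNA. Each knockout is represented by a single clone, so the edit and any other difference of that clone cannot be told apart. Bru-seq collects RNA made during 30 min with 2 mM bromouridine, so it measures nascent RNA and not the steady-state pool. BruUV-seq cells also received 100 J/m2 of UV light, which stalls polymerases and gathers the signal of a gene toward its start. Each line had 2 Bru-seq libraries and 1 BruUV-seq library, 9 libraries in all. Nothing in the labels says whether replicates came from separate cultures, so p-values measure the spread between these libraries, which may be technical.

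Libraries held 14.4 to 31.1 M reads in genes, except Bru-seq KO C28 replicate 2 with 5.64 M. Reads outside genes, estimated from the library total that the deposited counts and RPKM imply, made up 46.5% of that library and 9.93% to 20.01% of the others. Its levels correlated across genes at 0.631 to 0.765 with those of the other libraries. Each KO C28 fold change of a named gene in edgeR's fit is therefore also given without it. Exceptions are genes that then did not pass the filter on low counts. Levels are given as CPM, counts scaled to library size and, by TMM, to library composition. Nascent KDM6A was 259 and 430 CPM in Bru-seq KO C22, 325 and 81.7 CPM in Bru-seq KO C28, and 317 and 276 CPM in Bru-seq WT. In BruUV-seq it was 123 CPM in KO C22, 191 CPM in KO C28 and 201 CPM in WT. Against WT, the log2 fold change of KDM6A in KO C22 was -0.05 (SE 0.52). In KO C28 it was -0.36 (SE 0.52), or 0.13 (SE 0.34) without replicate 2. The nascent level thus did not separate the clones from WT, and whether the protein was lost cannot be read from it. The 10 epithelial and ductal markers summed to 198 to 557 CPM in KO C22, 400 to 2674 CPM in KO C28 (400 to 1433 CPM without Bru-seq replicate 2) and 335 to 695 CPM in WT libraries, with no marker at 0 in any line. The 15 markers of immune, endothelial, stromal, acinar, endocrine and podocyte cells summed to 7.51 to 41.3 CPM in KO C22, 6.65 to 58.5 CPM in KO C28 (6.65 to 23.1 CPM without that library) and 5.50 to 10.04 CPM in WT. Of those 15 genes, 3 were at 0 reads in KO C22, 1 in KO C28 (2 without that library) and 2 in WT. Any part of these marker levels in the results was not tested. In bulk RNA, a change in the share of cells that transcribe a gene and a change per cell cannot be told apart.

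CPA4 and CPA5 belong to the pancreatic carboxypeptidase family, zinc enzymes that trim single residues from the C-terminal end of peptides. CPA4 is secreted, is low in most adult tissues and is known for its expression in several carcinomas. It has itself been reported as imprinted, with expression from the maternal copy in some tissues. PODXL encodes podocalyxin, a heavily glycosylated sialomucin related to CD34 that was first described on kidney podocytes and is also found on embryonic stem cells and aggressive carcinomas. MEST is an imprinted gene transcribed from the paternal copy in most tissues, encodes a protein of the alpha/beta hydrolase fold and hosts the microRNA miR-335. KLF14 is an intronless, maternally expressed transcription factor gene of the same domain. COPG2 encodes a gamma subunit of the COPI coat of Golgi transport vesicles, CEP41 a centrosomal and ciliary protein needed for tubulin glutamylation, and MKLN1 muskelin, a subunit of the CTLH ubiquitin ligase.

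In the coordinates of the tables (build hg38/GRCh38), CPA4 spans chr7:130293134-130324180 on the plus strand and PODXL chr7:131504131-131556609 on the minus strand, with 1180 kb between them. CPA5 (chr7:130344816-130368730, plus strand), CEP41 (chr7:130393771-130441237, minus strand), MEST (chr7:130486171-130506296, plus strand), COPG2 (chr7:130506238-130668647, minus strand), KLF14 (chr7:130731235-130734061, minus strand) and MKLN1 (chr7:131110096-131496636, plus strand) lie between them in that order. MEST and COPG2 run toward each other and overlap by 59 bases at their ends. MKLN1 and PODXL also run toward each other, and 7494 bases separate their ends.

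RefSeq (build GRCh38.p14) gives promoter windows, from 250 bases before to 50 bases after a start site, for 6 of the 8 genes. The window of CPA4 is shown because CPA4 passed the test in KO C22, and a window of MEST, an imprinted gene between CPA4 and PODXL, is shown for contrast. Each is written 5′ to 3′ on the plus strand. Capitals mark matches to the AP-1 motif TGANTCA in CPA4 and CG dinucleotides in MEST.
CPA4, chr7:130292911-130293210: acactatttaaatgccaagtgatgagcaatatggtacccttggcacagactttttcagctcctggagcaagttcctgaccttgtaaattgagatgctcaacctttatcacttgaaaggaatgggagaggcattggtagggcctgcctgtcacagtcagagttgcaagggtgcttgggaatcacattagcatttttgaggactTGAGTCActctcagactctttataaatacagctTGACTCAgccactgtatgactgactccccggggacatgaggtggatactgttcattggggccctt
MEST, chr7:130491835-130492134: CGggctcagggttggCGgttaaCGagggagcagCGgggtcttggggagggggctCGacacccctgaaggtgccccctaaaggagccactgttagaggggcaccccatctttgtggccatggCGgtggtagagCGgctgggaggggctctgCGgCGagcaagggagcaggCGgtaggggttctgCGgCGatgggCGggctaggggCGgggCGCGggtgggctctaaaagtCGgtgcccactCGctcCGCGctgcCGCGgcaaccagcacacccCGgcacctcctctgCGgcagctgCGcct
The start site of the CPA4 window lies 27 bases inside the start of the gene in the tables. The window holds 1 CG dinucleotide, as few as or fewer than that being found in 11% of 35116 RefSeq windows, whose median is 14. The MEST window shown holds 25, the most of the 5 MEST windows, and 32% of windows hold at least as many. Its start site lies 5914 bases inside the start of MEST in the tables. The other MEST windows hold 13 to 22. The one whose start site is nearest to that gene start, 4 bases away, holds 13. The CPA4 window matches TGANTCA at 48 and at 15 bases before its start site, and 0.515% of windows hold at least 2 such matches and 7.71% at least 1. TATAAA, searched like the other motifs on both strands, matches at 30 and 28 bases before the start site, as overlapping matches of opposite strands, and is found in 11.5% of windows. The TEAD motif GGAATG matches once, at 134 bases before, and is found in 14% of windows. The GC box GGGCGG, present in 45% of windows, has no match. These are matches of letters and not measured binding sites.

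CPA4 had 25.6 and 26.0 CPM in Bru-seq KO C22, from 525 and 582 reads. It had 38.3 and 44.2 CPM in Bru-seq KO C28, from 622 and 288 reads, and 1.35 and 2.5 CPM in Bru-seq WT, from 30 and 61 reads. In BruUV-seq it had 34.0 CPM in KO C22, 91.7 CPM in KO C28 and 5.04 CPM in WT. Every library of both clones lay above every WT library, and every KO C28 library above every KO C22 library. The lowest WT value has an exact 95% Poisson interval of 0.912 to 1.93 CPM, and the KO C22 library nearest to WT one of 23.5 to 27.9 CPM. Such intervals cover counting error alone. Over both assays CPA4 was 10.7-fold higher in KO C22 than in WT, a log2 fold change of 3.42 (SE 0.42), with an adjusted p of 0.0120 by edgeR's quasi-likelihood test over 23443 genes, where an adjusted p of at most 0.05 passed. The call was lost without Bru-seq WT replicate 1 (adjusted p = 0.0838), Bru-seq WT replicate 2 (adjusted p = 0.0790) or the BruUV-seq WT library (adjusted p = 0.116) in edgeR's test, while the log2 fold change stayed between 3.18 and 3.77 whichever library was left out. The call was also lost with Bru-seq alone (adjusted p = 0.444 by edgeR), with the replicate number as a block in Bru-seq (adjusted p = 0.733 by edgeR) and with limma on log2(RPKM + 0.1), at a log2 fold change of 2.18 (adjusted p = 0.165). In KO C28 the log2 fold change against WT was 4.32 (SE 0.43), and 4.35 (SE 0.41) without replicate 2. CPA4 in KO C28 exceeded that in KO C22 by 0.90 (SE 0.38) on the log2 scale, and by 0.89 (SE 0.38) without Bru-seq KO C28 replicate 2. Without the BruUV-seq KO C22 library the difference was 0.44.

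**Figure D1:**
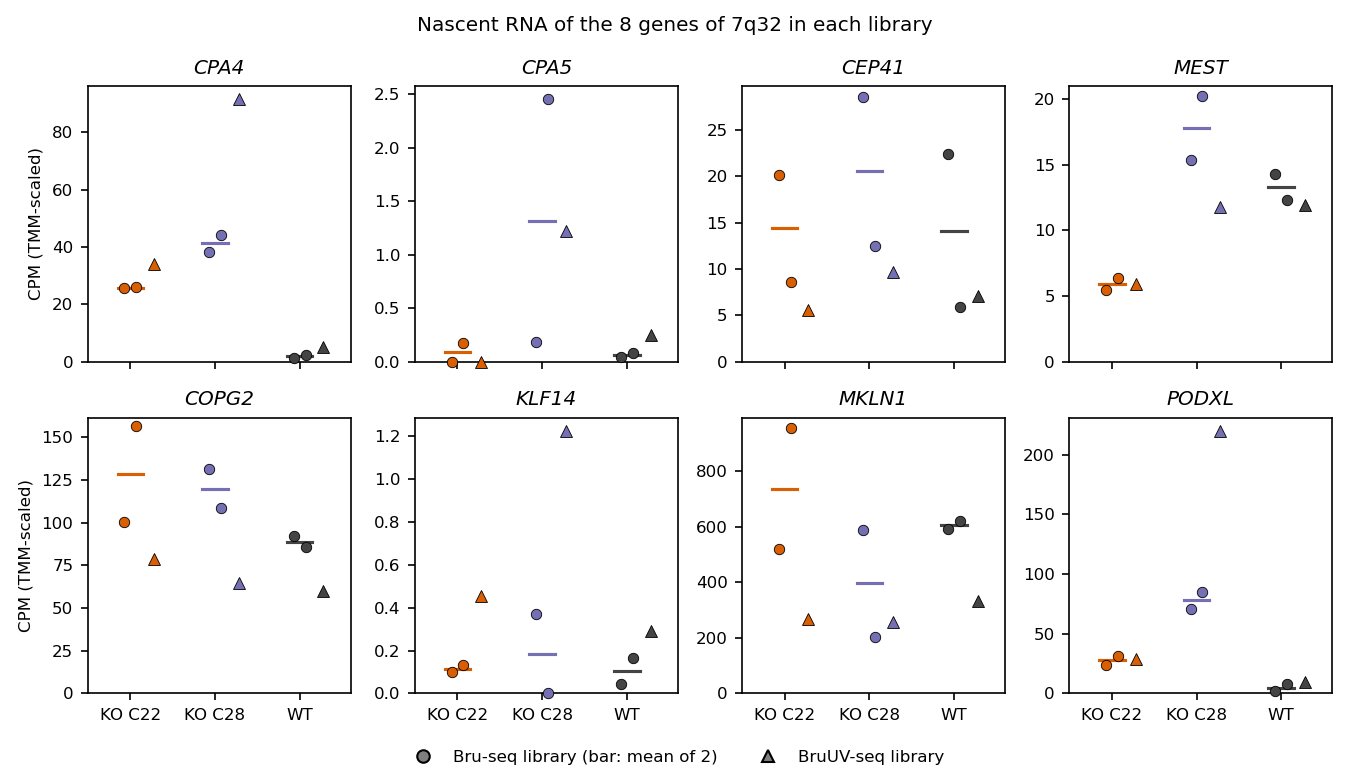
Nascent RNA of the 8 genes in CPM (TMM-scaled, each panel on its own linear axis) by line. Circles are Bru-seq libraries, bars their means over 2 libraries and triangles the BruUV-seq library. CPA4 and PODXL lie higher in all KO C22 and KO C28 libraries than in WT, and MEST lies near 6 CPM in KO C22, against 11.8 to 20.3 CPM in KO C28 and 12.0 to 14.3 CPM in WT.

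PODXL had 23.8 and 31.5 CPM in Bru-seq KO C22, from 488 and 706 reads. It had 70.8 and 85.2 CPM in Bru-seq KO C28, from 1151 and 555 reads, and 1.71 and 7.99 CPM in Bru-seq WT, from 38 and 195 reads. In BruUV-seq it had 28.5 CPM in KO C22, 219.9 CPM in KO C28 and 9.37 CPM in WT. The 3 lines did not overlap in PODXL, and the WT Bru-seq libraries were, by their ratio, the pair of replicates furthest apart. PODXL in KO C22 was above WT by 2.26 (SE 0.54) on the log2 scale, a 4.77-fold difference that did not pass edgeR's test (adjusted p = 0.244). It passed with DESeq2 (adjusted p = 0.00405) and in edgeR without the filter on low counts (adjusted p = 0.000585), so its call rests on these choices. In KO C28 the log2 fold change against WT was 4.22 (SE 0.58), and 4.34 (SE 0.60) without replicate 2. KO C28 lay above KO C22 by 1.96 (SE 0.53) on the log2 scale, and by 2.05 (SE 0.58) without that library.

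MEST had 5.47 and 6.34 CPM in Bru-seq KO C22, 15.4 and 20.3 CPM in Bru-seq KO C28, and 14.3 and 12.3 CPM in Bru-seq WT. In BruUV-seq it had 5.91 CPM in KO C22, 11.8 CPM in KO C28 and 12.0 CPM in WT. All 3 KO C22 libraries lay below all others, while KO C28 and WT overlapped. The log2 fold change of MEST in KO C22 against WT was -1.12 (SE 0.45), which did not pass edgeR's test (adjusted p = 0.819). In KO C28 against WT it was 0.28 (SE 0.45), and 0.15 (SE 0.37) without replicate 2. Between the clones MEST was higher in KO C28 by 1.40 (SE 0.46) on the log2 scale, and by 1.23 (SE 0.36) without that library. MEST lay on the opposite side of WT from CPA4 and PODXL in KO C22. MIR335, listed inside MEST, had 0 or 1 reads in every library.

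KLF14, which is also imprinted, had 2, 3 and 6 reads in KO C22 (Bru-seq replicates 1 and 2, then BruUV-seq), 6, 0 and 23 reads in KO C28 and 1, 4 and 7 reads in WT. It was the only member that did not pass the filter on low counts and has no fold change. CPA5, which lies 20.6 kb past the end of CPA4 on the same strand, had 0, 4 and 0 reads in KO C22, 3, 16 and 23 reads in KO C28 and 1, 2 and 6 reads in WT. The 0 counts of CPA5 allow up to 0.147 CPM in Bru-seq KO C22 replicate 1 and 0.227 CPM in BruUV-seq KO C22, taking 3 reads as the limit. The log2 fold change of CPA5 in KO C22 against WT was -0.81 (SE 1.83; adjusted p = 0.998 by edgeR), from too few reads for a direction. Without Bru-seq KO C28 replicate 2 it did not pass the filter.

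CEP41 had 20.1 and 8.62 CPM in Bru-seq KO C22, 28.6 and 12.4 CPM in Bru-seq KO C28 and 22.4 and 5.90 CPM in Bru-seq WT. In BruUV-seq it had 5.53 CPM in KO C22, 9.69 CPM in KO C28 and 7.08 CPM in WT. Replicates of a line differed more than lines did, and in each line replicate 1 was the higher of the Bru-seq libraries. Against WT, CEP41 in KO C22 had a log2 fold change of -0.10 (SE 0.60; adjusted p = 0.998 by edgeR), whose sign changed with the processing. In KO C28 it was 0.51 (SE 0.60), or 0.83 (SE 0.58) without replicate 2.

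COPG2 had 100.2 and 156.7 CPM in Bru-seq KO C22, 131.2 and 108.9 CPM in Bru-seq KO C28 and 92.2 and 85.8 CPM in Bru-seq WT. In BruUV-seq it had 78.9 CPM in KO C22, 64.7 CPM in KO C28 and 60.1 CPM in WT. Both clones lay above WT within each assay, by small margins. Against WT, COPG2 in KO C22 had a log2 fold change of 0.48 (SE 0.31; adjusted p = 0.995 by edgeR). In KO C28 it was 0.32 (SE 0.31), or 0.41 (SE 0.28) without replicate 2.

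MKLN1, the most abundant of the 8 genes in reads, had 520.3 and 956 CPM in Bru-seq KO C22, 591 and 205 CPM in Bru-seq KO C28 and 594 and 621 CPM in Bru-seq WT. In BruUV-seq it had 267 CPM in KO C22, 257 CPM in KO C28 and 332 CPM in WT. KO C22 lay on both sides of WT, and KO C28 was below WT in each assay, most of all in replicate 2. Against WT, MKLN1 in KO C22 had a log2 fold change of 0.10 (SE 0.48; adjusted p = 0.998 by edgeR), with a sign that depended on the processing. In KO C28 it was -0.52 (SE 0.48), or -0.12 (SE 0.33) without replicate 2.

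Of the 8 genes, 7 entered the fit, and 1 (CPA4) passed the KO C22 test as higher, against 0.107% of all 23443 genes, while 0 passed as lower, against 0.0512%. In that test 37 genes passed and 1254 had an unadjusted p under 0.05. Counted by non-overlap within each assay, 3 of the 7 (CPA4, COPG2 and PODXL) lay above WT in KO C22, against 8.1% of all genes, and 1 (MEST) lay below, against 12.4%. In KO C28, 4 (CPA4, CPA5, COPG2 and PODXL) lay above WT, against 12.6% of all genes, and 1 (MKLN1) below, against 13.3%. Without Bru-seq KO C28 replicate 2, CPA5 did not pass the filter and CEP41 joined those above WT, making 4 of 6 against 17.8% of the 21986 genes then in the fit, and MKLN1 was the 1 below, against 21.2%. Nothing is read from any of the KO C28 counts, since that contrast chose the genes. The KO C22 counts share its WT libraries, where CPA4 and PODXL were low by that choice. They are therefore not independent of it either.

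Divided by length, the genes changed places between lines. In Bru-seq KO C22 the mean RPKM (reads scaled to gene length and library size) was highest for MKLN1 at 1.40, followed by CPA4 at 0.638, COPG2 at 0.587, PODXL at 0.396, CEP41 at 0.248 and MEST at 0.229. The replicates of CPA4 and COPG2 overlapped there, as did those of CEP41 and MEST, and the other neighbours in this order did not. In Bru-seq KO C28 the order was PODXL at 1.10, CPA4 at 0.984, MKLN1 at 0.839, MEST at 0.668, COPG2 at 0.565 and CEP41 at 0.346, and each neighbouring pair overlapped. In KO C28 replicate 1 alone, MKLN1 at 1.35 RPKM came before PODXL at 1.19 and CPA4 at 1.09. In Bru-seq WT it was MKLN1 at 1.31, MEST at 0.570, COPG2 at 0.459, CEP41 at 0.252, PODXL at 0.0761 and CPA4 at 0.0515. The WT replicates of MKLN1, MEST and COPG2 did not overlap with those of their neighbours in this order, while CEP41 overlapped with PODXL and PODXL with CPA4. KLF14 averaged 0.0307 RPKM in KO C22, 0.0576 in KO C28 and 0.0305 in WT, and CPA5 0.0024 in KO C22, 0.0351 in KO C28 and 0.0022 in WT.

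Ratios between neighbours within a library do not depend on its depth or scaling. The RPKM of CPA4 over that of COPG2 was 1.33 and 0.866 in Bru-seq KO C22, 1.52 and 2.12 in Bru-seq KO C28 and 0.0762 and 0.153 in Bru-seq WT, and 2.25 in BruUV-seq KO C22, 7.39 in BruUV-seq KO C28 and 0.437 in BruUV-seq WT. The ratio of PODXL to MKLN1 was 0.337 and 0.243 in Bru-seq KO C22, 0.882 and 3.06 in Bru-seq KO C28 and 0.0212 and 0.0946 in Bru-seq WT, and 0.784, 6.30 and 0.208 in BruUV-seq of KO C22, KO C28 and WT. Both ratios were higher in every library of a clone than in every WT library. MEST over COPG2 was 0.450 and 0.335 in Bru-seq KO C22, 0.973 and 1.54 in Bru-seq KO C28 and 1.29 and 1.19 in Bru-seq WT, and 0.622, 1.51 and 1.65 in BruUV-seq of KO C22, KO C28 and WT. This ratio was lowest in the KO C22 libraries and overlapped between KO C28 and WT.

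**Figure D2:**
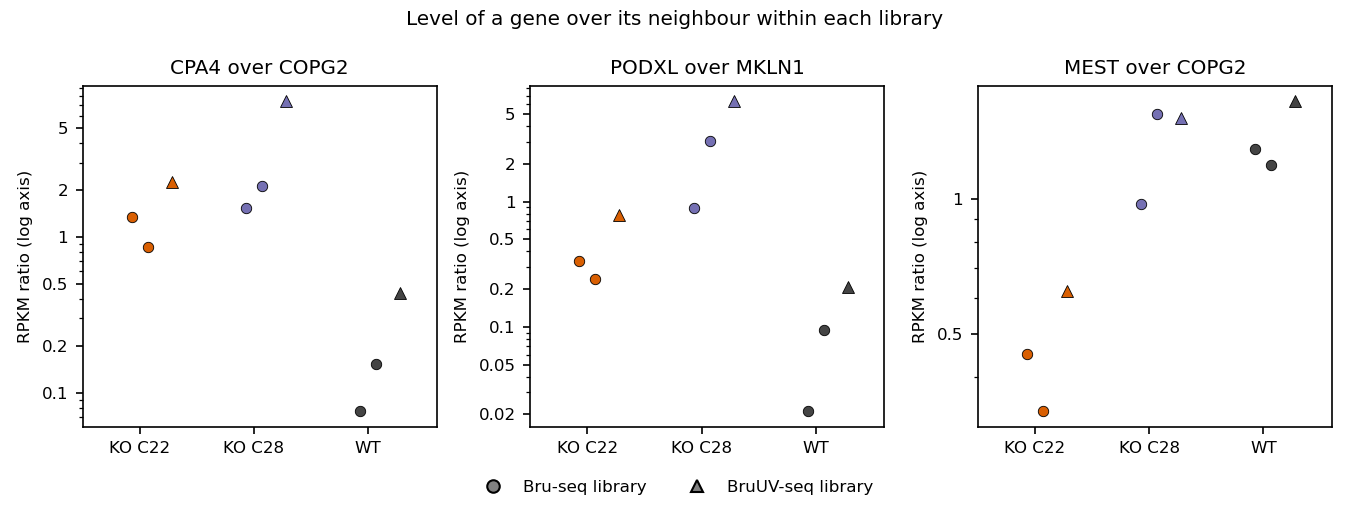
RPKM of a gene over that of a neighbour within each library (log axes), by line. Circles are Bru-seq and triangles BruUV-seq libraries. CPA4 over COPG2 and PODXL over MKLN1 are higher in each KO C22 and KO C28 library than in each WT library, and MEST over COPG2 is 0.335 to 0.622 in KO C22, against 0.973 to 1.54 in KO C28 and 1.19 to 1.65 in WT.

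The tables list 70 genes on chromosome 7 within 1000 kb of the group, of which 33 entered the fit and 6 had 0 reads in all libraries. Among the 20 with a mean of at least 100 reads, 12 had a log2 fold change above 0 and 8 below in KO C22 against WT, with a median of 0.13, against a median of -0.03 over all 11811 such genes. In KO C28 against WT 8 lay above and 12 below, with a median of -0.10, against -0.13 over all. Without replicate 2 of KO C28 it was 12 above and 8 below, with a median of 0.15, against -0.02. Of all 11811 such genes, 5611 lay above 0 in KO C22 and 4916 in KO C28, or 5674 in KO C28 without replicate 2. CPA4 and PODXL were the 2 of these 20 genes with a log2 fold change over 4 in KO C28, against 0.127% of all such genes, which is how they were chosen.

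The 9 genes of at least 100 reads between CPA4 and PODXL had a median log2 fold change of -0.32 in KO C22 and -0.52 in KO C28 against WT, or -0.27 in KO C28 without replicate 2. Each time 6 of the 9 were below 0. Of all 11811 genes of at least 100 reads, 6200 were below 0 in KO C22 and 6895 in KO C28, or 6137 in KO C28 without replicate 2. A count of 6 of 9 lies near those shares, so no common direction is read from it. Beside CEP41, MEST, COPG2 and MKLN1, the 9 are the noncoding genes LINC00513, AC016831.1, AC016831.5, LINC-PINT and MKLN1-AS. LINC00513 had 14.4 and 14.8 CPM in Bru-seq KO C22, 28.7 and 19.3 CPM in Bru-seq KO C28 and 23.1 and 40.1 CPM in Bru-seq WT, with a log2 fold change of -1.42 (SE 0.38; adjusted p = 0.366 by edgeR) in KO C22. LINC-PINT, a long noncoding RNA gene that shares its start region with MKLN1 on the other strand, had a log2 fold change of -0.32 (SE 0.71; adjusted p = 0.998 by edgeR) in KO C22. In KO C28 that of LINC-PINT was -1.42 (SE 0.73), or -0.85 (SE 0.63) without replicate 2. AC016831.1, AC016831.5 and MKLN1-AS had log2 fold changes of 0.40 (SE 0.72), -0.60 (SE 0.69) and -0.43 (SE 0.57) in KO C22. In KO C28 the same genes had -0.80 (SE 0.71), -1.61 (SE 0.71) and -0.33 (SE 0.57), or -0.27 (SE 0.55), -1.13 (SE 0.70) and -0.54 (SE 0.55) without replicate 2. None of these 9 passed the KO C22 test.

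**Figure D3:**
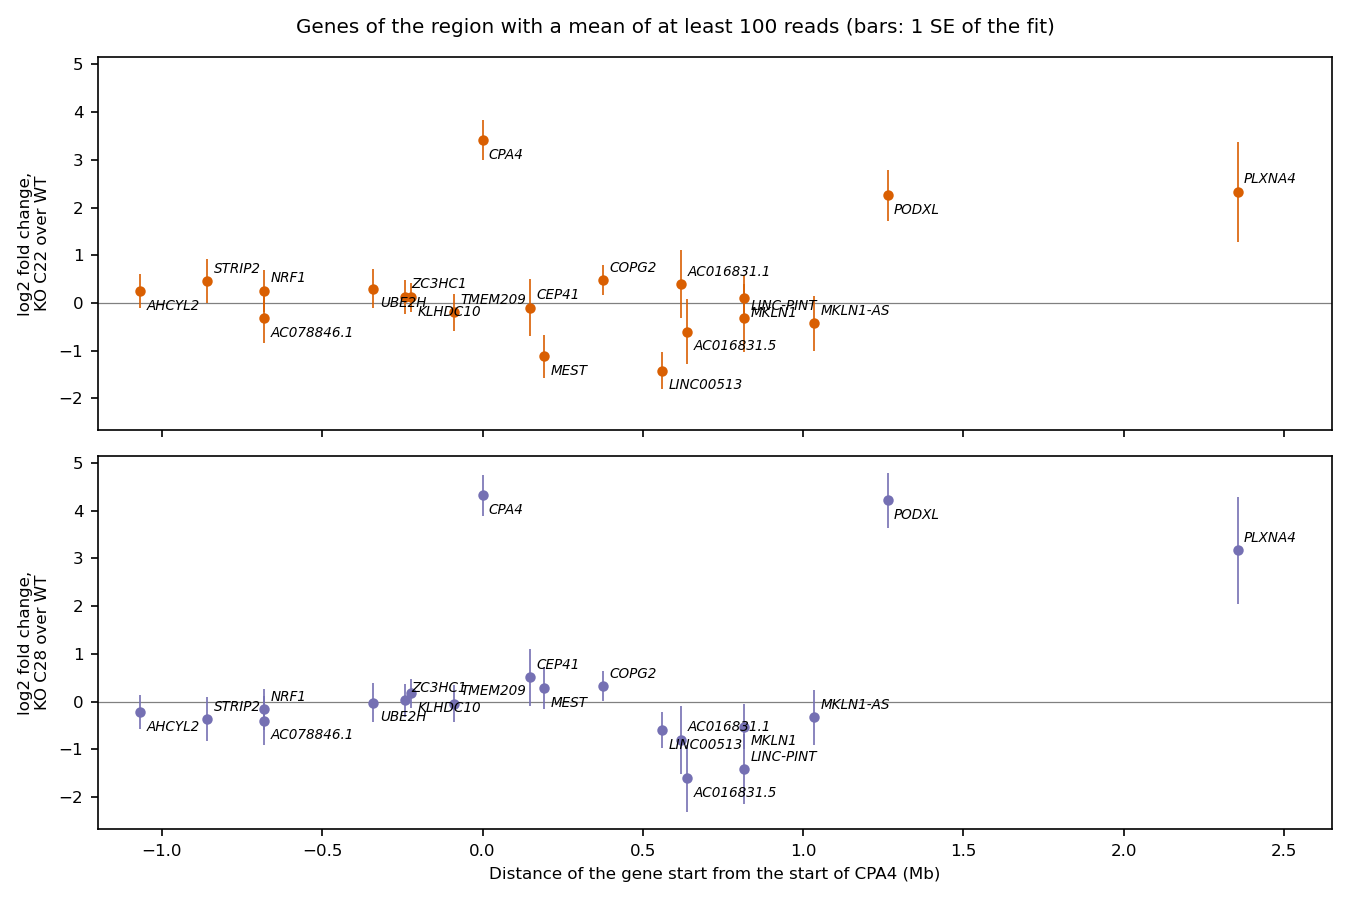
Log2 fold change against WT (bars, 1 SE of the fit) of the 20 genes of the region with a mean of at least 100 reads, KO C22 above and KO C28 below, against the distance of the gene start from that of CPA4 in Mb. CPA4 at 3.42 and 4.32 and PODXL at 2.26 and 4.22 stand above the genes between them, whose medians are -0.32 in KO C22 and -0.52 in KO C28.

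Among the other genes of the region that entered the fit, the 5 with the largest absolute log2 fold change in KO C28 against WT were AC011625.1, AC009518.1 (4.68), AC008264.2 (3.75), TSGA13 (3.37) and PLXNA4 (3.17). AC011625.1 had 15 reads in each Bru-seq library of KO C28 and 0 in the other 7 libraries, so its fitted value, which ranked first, is not given as a fold. All but PLXNA4 had a mean under 100 reads. Without replicate 2, AC009518.1 was at 3.51 and AC008264.2 at 4.13, and AC011625.1 and TSGA13 did not pass the filter on low counts. PLXNA4, a plexin receptor of semaphorins, had 16.9 and 23.7 CPM in Bru-seq KO C22, 2.83 and 113 CPM in Bru-seq KO C28 and 3.52 and 3.89 CPM in Bru-seq WT. Its KO C28 value rests on replicate 2 alone, since without that library it stood at 0.19 (SE 0.49) on the log2 scale. In KO C22 it was 2.33 (SE 1.05; adjusted p = 0.927 by edgeR), and 2.39 (SE 0.44; adjusted p = 0.0456 by edgeR) when Bru-seq KO C28 replicate 2 was left out. AC008264.2 lies 6436 bases past the end of PODXL on the same strand and overlaps the end of MKLN1. It had 11, 11 and 2 reads in KO C22 (Bru-seq replicates 1 and 2, then BruUV-seq), 40, 9 and 24 reads in KO C28 and 3, 6 and 1 reads in WT.

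Whether counting kept the strands apart was judged inside the region. LINC00513 overlaps the far more abundant AC016831.1 on the opposite strand. Its RPKM was 0.00246 to 0.0511 of that of AC016831.1 in the 9 libraries, so the strands were kept apart at this pair. For MKLN1-AS inside MKLN1 the ratio was 0.183 to 1.17. A ratio near 1 can come from transcription of the antisense gene as well as from mixed strands, so this pair does not decide it. For AC007938.2, which overlaps MEST on the opposite strand, the ratio to MEST was 0 to 0.998. The highest ratio rests on 15 reads of AC007938.2 in Bru-seq KO C22 replicate 1. In Bru-seq KO C28 replicate 2 it had 0 reads against 132 of MEST. Taken alone, the MEST pair does not decide it either.

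BruUV-seq and Bru-seq were compared over the 3 lines with line in the model. None of the 7 members in the fit passed edgeR's test, against 0.00427% of all genes (1 gene passed, and 5476 had an unadjusted p under 0.05). CPA4 was higher in BruUV-seq by a log2 fold change of 0.99 (SE 0.32; adjusted p = 0.160 by edgeR), and it was the 1 member above both Bru-seq libraries in each of the 3 lines, against 14.3% of all genes. COPG2 was the 1 member below both in each line, against 10.8% of all genes, with a log2 fold change of -0.72 (SE 0.28; adjusted p = 0.180 by edgeR). DESeq2 gave an adjusted p of 0.0375 for CPA4 and 0.0363 for COPG2, where 3951 of all 23443 genes passed. MKLN1 had a log2 fold change of -0.97 (adjusted p = 0.207 by edgeR). Without Bru-seq KO C28 replicate 2 that of MKLN1 was -1.17 (adjusted p = 0.0248 by edgeR), where 3305 of all 21986 genes passed. PODXL was at 0.87 (adjusted p = 0.246 by edgeR), CEP41 at -1.15 (adjusted p = 0.227 by edgeR) and MEST at -0.24 (adjusted p = 0.718 by edgeR). The BruUV-seq level over the Bru-seq mean of PODXL was 1.03 in KO C22, 2.82 in KO C28 and 1.93 in WT, and that of CPA4 was 1.32, 2.22 and 2.62. Differences of these ratios between lines were not tested, since each line had 1 BruUV-seq library.

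**Figure D4:**
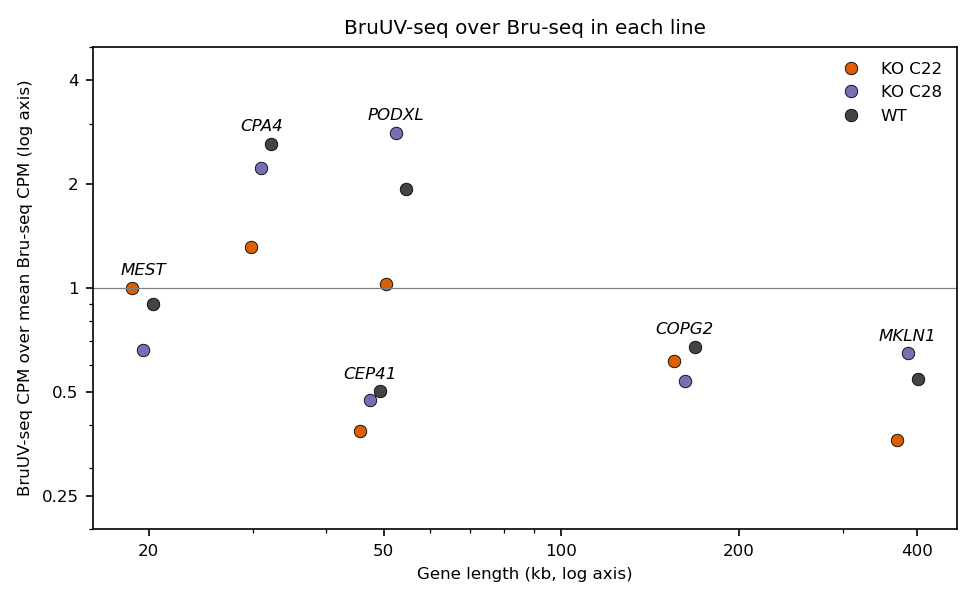
BruUV-seq CPM over the mean Bru-seq CPM of the same line (log axis) against gene length in kb (log axis) for the 6 members with a mean of at least 100 reads, with the points of the 3 lines set slightly apart. CPA4 at 31.0 kb and PODXL at 52.5 kb lie above 1 in each line, with PODXL at 1.03 in KO C22. CEP41, COPG2 and MKLN1 lie below 1 in each line. MEST, the shortest at 19.6 kb, lies at 1.00 in KO C22, 0.663 in KO C28 and 0.898 in WT.

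Of 18 genes of the metallocarboxypeptidase family and its inhibitor LXN, 14 entered the fit and 1 passed in KO C22 as higher, against 0.107% of all genes. That gene is CPA4, the member described above. The list had a median of 0.73 on the log2 scale, against 0.03 over all genes tested. CPA6, a carboxypeptidase of the extracellular matrix, had a log2 fold change of 2.3 (SE 0.88; adjusted p = 0.764 by edgeR) in KO C22, and in KO C28 it was 2.52 (SE 0.93), or 0.51 (SE 0.46) without replicate 2. LXN, latexin, an inhibitor of carboxypeptidases, was at -2.25 (SE 0.68; adjusted p = 0.507 by edgeR) in KO C22, and in KO C28 it was 1.74 (SE 0.67), or 0.58 (SE 0.47) without replicate 2. Leaving out Bru-seq KO C28 replicate 2 let CPA6 pass in KO C22 as well (adjusted p = 0.0424 by edgeR), making 2 of the 9 genes then in the fit, of which CPA4 is the member described above, against 0.446% of all genes as higher. CPA6 and LXN were named after their values were seen.

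Of a list of 42 imprinted genes, 40 were in the tables and 31 entered the fit, and 0 passed in KO C22, where 19 lay above 0 and 12 below with a median of 0.18. CPA4, which passed and has been reported as imprinted in some tissues, was not on this list. Over all genes tested, 51.6% lay above 0, with a median of 0.03. The largest change in the list was that of HYMAI, at -4.47 (SE 1.45; adjusted p = 0.586 by edgeR) from a mean of 29.9 reads. The growth factor gene IGF2 was at 3.25 (SE 0.70; adjusted p = 0.170 by edgeR) in KO C22. In KO C28 it was at 3.61 (SE 0.71), or 2.98 (SE 0.65) without replicate 2. PLAGL1, a zinc finger factor gene of the same locus as HYMAI, was at -2.85 (SE 0.54; adjusted p = 0.0952 by edgeR) in KO C22. In KO C28 it was at -1.42 (SE 0.52), or -1.82 (SE 0.51) without replicate 2. Leaving out Bru-seq KO C28 replicate 2 let 3 of the 29 imprinted genes then in the fit pass in KO C22, IGF2 (adjusted p = 0.0478 by edgeR) and GRB10 as higher and PLAGL1 (adjusted p = 0.0224 by edgeR) as lower, and MEST was not among them (adjusted p = 0.234 by edgeR). Of all genes, 0.446% passed as higher and 0.2% as lower without that library. GRB10, IGF2 and PLAGL1 were named after their values were seen.

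In the list of podocalyxin, its relatives and its binding partners, 13 of 15 genes entered the fit, 0 passed in KO C22 and the median was 0.22, with PODXL the largest change. The cytoskeletal linker gene MSN, named after its values were seen, followed at 1.34 (SE 0.53; adjusted p = 0.795 by edgeR). Of the COPI coat all 9 genes entered and 0 passed, with COPZ2 the largest at -1.71 (SE 0.78; adjusted p = 0.936 by edgeR). Of the CTLH ligase all 11 entered and 0 passed, with YPEL5 the largest at -0.68 (SE 0.43; adjusted p = 0.995 by edgeR). Of the KLF family 14 of 17 entered and 0 passed, with KLF17 the largest at 2.92 (SE 1.63; adjusted p = 0.995 by edgeR) from a mean of 9.78 reads. Of 20 ciliary genes related in function to CEP41, 19 entered and 0 passed, with TMEM67, a transition zone protein gene, the largest at -1.48 (SE 0.38; adjusted p = 0.304 by edgeR). No gene of these last 5 lists passed without Bru-seq KO C28 replicate 2 either. The medians of the last 4 were -0.10, 0.03, -0.24 and -0.13, against 0.03 over all genes tested.

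Across the 9 libraries the log2 CPM of CPA4 and PODXL correlated at 0.877, and that of COPG2 and MKLN1 at 0.871. CPA4 and MEST correlated at -0.40 and PODXL and MEST at -0.21. These 9 points share lines, assays and depths, so the values describe them and carry no p. CPA4 and PODXL were both chosen as higher in KO C28 than in WT, which by itself raises their correlation. Nothing is read from it. Among 11810 genes with a mean of at least 100 reads, those most like CPA4 were HHIPL2 (0.910), CDH6 (0.907), SPOCK1 (0.904), PEG10 (0.890) and CUX2 (0.887). SPOCK1, a secreted proteoglycan gene, averaged 492 CPM in Bru-seq KO C22, 328 CPM in Bru-seq KO C28 and 19.9 CPM in Bru-seq WT. Those most like PODXL were MARCKS (0.903), CAMK2N1 (0.900), MEGF6 (0.889), MAP4K1 (0.886) and MLPH (0.883). MARCKS, an actin-binding kinase substrate, averaged 33.0 CPM in Bru-seq KO C22, 97.4 CPM in Bru-seq KO C28 and 7.79 CPM in Bru-seq WT. Those most like MEST were OFD1 (0.919), PGK1 (0.912), ETFRF1 (0.906), OLFML2A (0.889) and RAB11FIP4 (0.883), with the glycolytic gene PGK1 averaging 112 CPM in Bru-seq KO C22, 257 CPM in Bru-seq KO C28 and 249.8 CPM in Bru-seq WT. PEG10, an imprinted gene, was the only one of these 15 genes on chromosome 7.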

How the data were processed

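The sources give PANC-1 nascent RNA in 9 libraries, 2 Bru-seq and 1 BruUV-seq for each of KO C22, KO C28 and WT. The submitters' processing notes name CASAVA 1.8.2, Bowtie2 2.3.3, STAR 2.5.3a and bedtools 2.16.2 and the builds hg38 and GRCh38, without roles. The annotation release was not given in the sources used here. The deposited tables have no column headers. From their values, the authors give for each of 57733 genes an expected count (estimated reads over the gene, partly fractional), an RPKM value and a length.

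Expected counts were rounded to whole numbers and fitted with edgeR 4.0.16 in R 4.3.3 over all 9 libraries, with line and assay as terms, filterByExpr (23443 genes kept), TMM scaling, quasi-likelihood tests and p-values adjusted by Benjamini-Hochberg over all genes kept. CPM values are TMM-scaled. The script was tested on simulated data. Depth was 5.64 to 31.1 M reads in genes.

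The members, gene lists and tests were chosen with earlier results of these data known. Named are the members, KDM6A, genes of at least 100 mean reads between CPA4 and PODXL, the 5 largest other changes of the region in KO C28, the 5 genes most correlated with CPA4, PODXL or MEST (log2 CPM, prior count 2), and list members that passed or changed most in KO C22, with exceptions stated. Alternatives were size factors and the Wald test of DESeq2 1.42.0, limma-voom and limma 3.58.1 on log2(RPKM + 0.1), no filter, Bru-seq alone, a replicate block and each library left out. Whether replicate numbers pair libraries was not settled. Deviations of same-numbered libraries correlated at -0.44 (KO C22 and KO C28), 0.23 (KO C22 and WT) and -0.01 (KO C28 and WT). Yet Bru-seq WT replicate 1 and Bru-seq KO C28 replicate 1 shared their highest correlation across genes, 0.925. Bru-seq WT replicate 2 and Bru-seq KO C22 replicate 2 shared theirs, 0.917. No genome was used, and sequences are from RefSeq tables.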

Additional observations from a re-analysis of the deposited data

How the results depend on the processing

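The number of genes that passed in KO C22 against WT, 37 with edgeR, was 272 without the filter, 348 with DESeq2, 1 with Bru-seq alone, 1 with limma on log2(RPKM + 0.1) and 3 to 142 when 1 library was left out (142 without Bru-seq KO C28 replicate 2). With the replicate number as a block in the 6 Bru-seq libraries, 0 genes passed, and CPA4 in KO C22 had a log2 fold change of 3.79 (adjusted p = 0.733 by edgeR). Whether the replicate numbers pair the libraries was not settled, so the loss of that call is neither set aside nor read as a weaker effect. CPA4 in KO C22 also missed the threshold with Bru-seq alone, at 3.77 (adjusted p = 0.444 by edgeR), and with limma on log2(RPKM + 0.1), at 2.18 (adjusted p = 0.165), where fewer samples and a pseudocount bear on the value. It ranged from 3.18 to 3.77 when 1 library was left out. PODXL in KO C22 passed without the filter, at 2.23, and with DESeq2, at 2.32. It was 1.83 to 3.06 when 1 library was left out. In KO C28 against WT, limma on log2(RPKM + 0.1) gave 3.08 for CPA4 and 3.20 for PODXL, values the pseudocount lowers, and leaving out 1 library gave 3.96 to 4.40 and 3.72 to 4.79. The number of genes that passed in BruUV-seq against Bru-seq, 1 with edgeR, was 2326 without the filter, 3951 with DESeq2, 150 with limma-voom, 823 with limma on log2(RPKM + 0.1) and 0 to 3305 when 1 library was left out. The cause of these differences was not tested. CEP41 in KO C22 against WT, -0.10 with all libraries, changed sign with limma-voom (0.0726), Bru-seq alone (0.0778) and the block (0.23), and ranged from -0.57 to 0.53 when 1 library was left out. MKLN1 changed sign with limma on log2(RPKM + 0.1) (-0.10) and ranged from -0.24 to 0.35 when 1 library was left out. MEST in KO C22 against WT stayed between -1.17 and -1.0 in the fits. Its Bru-seq mean in KO C22 over WT was -1.17 as CPM, -1.32 as the deposited RPKM and -1.47 as a share of the reads of the region, on the log2 scale. As a share of the reads of the region, the Bru-seq mean of KO C28 over WT was 5.24 for CPA4, 4.94 for PODXL and 1.16 for MEST on the log2 scale, against 4.42, 4.01 and 0.42 as CPM. These means include Bru-seq KO C28 replicate 2 and were not computed without it. In that library AC016831.1, the gene of the region with the most reads, had 184 CPM, against 905 CPM in replicate 1. A lower total of the region raises every share taken of it. CPA5 and KLF14 had too few reads for a direction.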
